A study of Rattus norvegicus with 484 samples.

Results

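The transporters described here are the members of 2 large gene families on a rat expression array: the ATP-binding cassette (ABC) transporters of the Abca, Abcb, Abcc, Abcd and Abcg groups, and the organic anion, cation and bile acid carriers whose symbols begin with Slco, Slc22a, Slc10a or Slc47a. Members were chosen by the start of the gene symbol alone, with Abcd3 left out, and the probes of a gene were averaged. This gave 60 genes of the 10210 named on the array, measured by 182 probes: 7 Abca, 7 Abcb, 9 Abcc, 1 Abcd, 7 Abcg, 3 Slc10a, 12 Slc22a, 1 Slc47a and 13 Slco genes. Of these, 42 had more than 1 probe, at most 7, and 18 had a single probe.

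The study gave rats a peroxisome proliferator-activated receptor (PPAR) agonist, retinoic acid or vehicle and took liver, soleus muscle and a muscle that the labels call quad on days 2 to 6. Doses are written in mkd, as in the labels: fenofibrate at 400 and bezafibrate at 250 (both fibrates), Wy-14,643 at 100 (a PPARA agonist), rosiglitazone at 100 (a PPARG agonist) and retinoic acid at 25. Liver had 14 fenofibrate, 15 bezafibrate, 15 Wy-14,643, 15 rosiglitazone, 15 retinoic acid and 73 vehicle rats. Soleus had 19, 20, 18, 20, 20 and 35 in that order, and quad had 18, 20, 16, 16, 18 and 63. On each day liver had 2 or 3 fenofibrate rats, 3 rats of each other compound and 14 to 16 vehicle rats. Effects of single days are therefore less precise than means over the days. Each of these 430 arrays carried Cy5-labelled RNA from a single rat and, as reference, Cy3-labelled RNA pooled from vehicle rats matched for tissue and day. The labels name no strain, sex or age, and the animals of each group differed from vehicle rats only in the compound, as far as the labels say.

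ABC transporters use ATP to move lipids, conjugated metabolites and drugs across membranes, mostly outward. In liver they load bile with phospholipid, sterol and bile salt at the canalicular membrane and return conjugates to blood at the opposite side. Slco and Slc22a carriers bring organic anions, cations and carnitine into the cell, Slc10a carriers take up bile salts with sodium, and Slc47a1 exports cations in exchange for protons. PPARA is the nuclear receptor through which fibrates and Wy-14,643 raise fatty acid oxidation in rodent liver, PPARG is most abundant in fat, and retinoic acid acts through receptors that pair with the same partner, RXR.

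All values are log2 ratios. A level is a rat's ratio minus the mean ratio of same-day vehicle rats in that tissue, and an effect is the mean of such differences over the 5 days, with its standard error (SE). Since values are ratios to a pool of the same tissue, they hold no absolute level, neither transcripts nor tissues can be ranked by abundance, and a tissue's identity could not be checked from its own markers. Effects were tested with limma across all probes and genes and called at a Benjamini-Hochberg adjusted p below 0.05. Compounds share their vehicle rats, so agreement between compounds is not independent evidence. Within a tissue each array is a separate rat by its number in the labels, and the same rats recur in the other tissues, so p-values within a tissue measure the spread between rats, hybridisations included.

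The compounds' known target genes moved as their labels name them. In liver Acot1, an acyl-CoA thioesterase and PPARA target, differed from vehicle by 2.92 with fenofibrate, 3.20 with bezafibrate and 3.20 with Wy-14,643. The retinoic acid hydroxylase Cyp26b1 rose by 4.93 with retinoic acid, and Fabp4, a PPARG target, rose by 1.36 with rosiglitazone in each muscle. There were 8 arrays that stood apart. Each had a spread over 3 times that of a typical array of the tissue, or markers of a different tissue raised by over 2 log2 units against same-day arrays. These markers were those of skeletal muscle for liver arrays and of hepatocytes for muscle arrays. In liver 1 rosiglitazone array stood apart, that of rat 1376 on day 4. Its spread was 4.59 times the median and its skeletal muscle markers lay 2.32 above the day's arrays. In soleus they were vehicle rats 1022, 1034 and 1061. In quad they were a bezafibrate rat (1256), a retinoic acid rat (1321), a vehicle rat (1068) and a fenofibrate rat (1157). The fit shares 1 variance per feature over all groups of a tissue, so such an array also bears on the calls of other compounds. Many of the counts and main results these arrays touch are also given without them.

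In liver 44 of the 60 transporters (73.3%) were called with at least 1 compound, where 71.1% of all features were. Without rat 1376 these were 46 members (76.7%) and 74.6% of all features. Fenofibrate raised 11 and lowered 11, which is 36.7% of the members, where 37% of all features were called, 17.7% higher and 19.3% lower. Bezafibrate raised 6 and lowered 7, or 21.7%, with 21.3% of all features called (11.4% higher, 9.89% lower). Wy-14,643 raised 10 and lowered 7, or 28.3%, with 40.2% of all features called (19.1% higher, 21.2% lower). Rosiglitazone raised 5 and lowered 13, or 30%, with 22.7% of all features called (10.3% higher, 12.4% lower). That count rests on rat 1376: without its array 9 members rose and 7 fell, with 18.6% of all features called (6.38% higher, 12.2% lower). Retinoic acid raised 9 and lowered 19, or 46.7%, with 29.2% of all features called (14.2% higher, 15% lower). The mean of the 3 PPARA agonists called 23 members, with 45.5% of all features called. Rat 1376 also entered the variance used for these other compounds. Without it fenofibrate raised 13 and lowered 12, bezafibrate 6 and 11, Wy-14,643 11 and 10, and retinoic acid 10 and 22. The PPARA mean then called 25 members. The share of all features without that rat is given only for rosiglitazone and for any compound. The median absolute effect of retinoic acid was 0.144 over the members and 0.075 over all features, whereas for fenofibrate these were 0.094 and 0.093. So with all rats included the members' share with each of the 3 PPARA agonists lay near the share of all features or under it. That share is not a result about transporters.

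**Figure D1:**
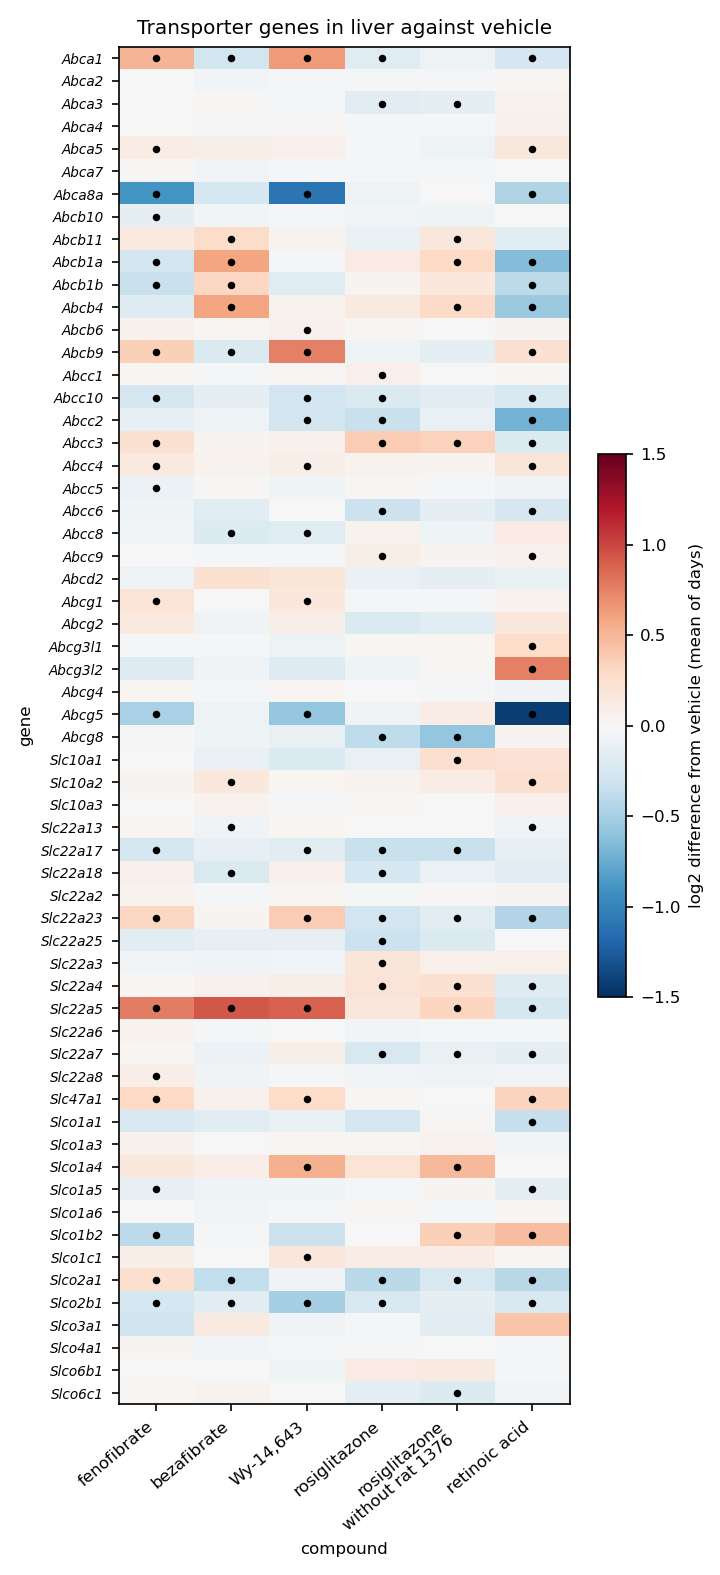
Heat map of the liver effect of each compound (columns) on each of the 60 transporters (rows, grouped by family), in log2 units averaged over days 2 to 6, with rosiglitazone shown with and without rat 1376. Colour runs from -1.5 to 1.5, and black dots mark effects called by limma. Slc22a5 is raised in the 3 PPARA agonist columns, and the retinoic acid column holds the strongest single fall, Abcg5 at -1.43.

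The plasma membrane carnitine transporter Slc22a5 (OCTN2) was the only member that rose with all 3 PPARA agonists. Carnitine carries fatty acyl groups into mitochondria, and Slc22a5 brings it into the cell. Levels in the 73 vehicle livers ran from -1.40 to 0.85, with a median of 0.02. With fenofibrate the lowest, median and highest level were 0.21, 0.89 and 1.13. With bezafibrate they were 0.08, 0.97 and 1.24, and with Wy-14,643 0.59, 0.84 and 1.13. Every rat of these groups lay above its day's vehicle mean, but the groups overlapped the vehicle range: 7 fenofibrate, 11 bezafibrate and 7 Wy-14,643 rats lay above all vehicle rats. The Slc22a5 effects were 0.77 ± 0.10 (SE, adjusted p = 6.9e-10), 0.93 ± 0.10 (adjusted p = 2.3e-13) and 0.88 ± 0.10 (adjusted p = 3.6e-13), folds of 1.71, 1.91 and 1.84. Its 3 probes gave nearly the same value with each compound, between 0.76 and 0.94. The rise was present on day 2 with each agonist (1.08, 0.71 and 1.06). The mean of the 3 agonists had no called trend for Slc22a5 (-0.03 ± 0.05 per day, adjusted p = 0.89), and trends with each agonist alone were not tested.

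Rosiglitazone left Slc22a5 at 0.17 ± 0.10 (adjusted p = 0.23), a value that includes rat 1376 at -2.11. Without that rat the Slc22a5 effect was 0.32 ± 0.09 (adjusted p = 0.0073). With retinoic acid Slc22a5 was at -0.27 ± 0.10 (adjusted p = 0.034), but the call was lost when day 3 was left out (-0.11, adjusted p = 0.58), the day of rat 1314 at -1.84. Slc22a4 (OCTN1), the neighbouring family member that prefers ergothioneine, did not pass with any PPARA agonist (0.03, 0.07 and 0.08). Slc22a4 fell with retinoic acid, with all 15 rats below the vehicle mean (-0.19 ± 0.05, adjusted p = 0.0012), and rose with rosiglitazone (0.19 ± 0.05, adjusted p = 0.0029). Of the 10 listed genes of carnitine synthesis and use, 5 rose and 1 fell with each PPARA agonist, or 60%. Of all features 37% were called with fenofibrate, 21.3% with bezafibrate and 40.2% with Wy-14,643. Those that rose with all 3 agonists were Cpt1b, Cpt2, Crat, Crot and Slc25a20, which attach, move or release acyl-carnitine. Cpt1b, the muscle-type carnitine palmitoyltransferase, rose by 2.81 with fenofibrate, 1.63 with bezafibrate and 3.25 with Wy-14,643. Bbox1, the last enzyme of carnitine synthesis, fell by 0.59 with fenofibrate and by 0.59 with Wy-14,643, and with bezafibrate the gene that fell was Aldh9a1, an earlier enzyme of that route (-0.35).

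The bases just before the start of Slc22a5 are shown because the gene rose with all 3 agonists. They come from RefSeq on rat build GRCr8, at chr10:38536073-38536322 on the minus strand. The capitals mark 3 GC boxes (GGGCGG or its complement).
Slc22a5: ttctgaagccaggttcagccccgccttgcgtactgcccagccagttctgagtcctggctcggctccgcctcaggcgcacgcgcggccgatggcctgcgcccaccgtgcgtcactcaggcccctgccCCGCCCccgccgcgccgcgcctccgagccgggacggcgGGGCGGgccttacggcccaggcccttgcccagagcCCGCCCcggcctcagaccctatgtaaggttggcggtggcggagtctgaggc
Promoter windows of 300 bases, 250 before and 50 after the start, were found for 51 of the 60 members. A direct repeat of AGGTCA spaced by 1 base (AGGTCANAGGTCA), the type that PPAR and RXR bind, was searched on both strands with up to 2 mismatches. It was in 3.77% of 33469 promoter windows and in 0 of the 51 members' windows, Slc22a5 included. GC boxes were in 33.1% of all windows and in 28 of 51 members' windows. No match says only that these letters are not in this window, and 9 members had no window.

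**Figure D2:**
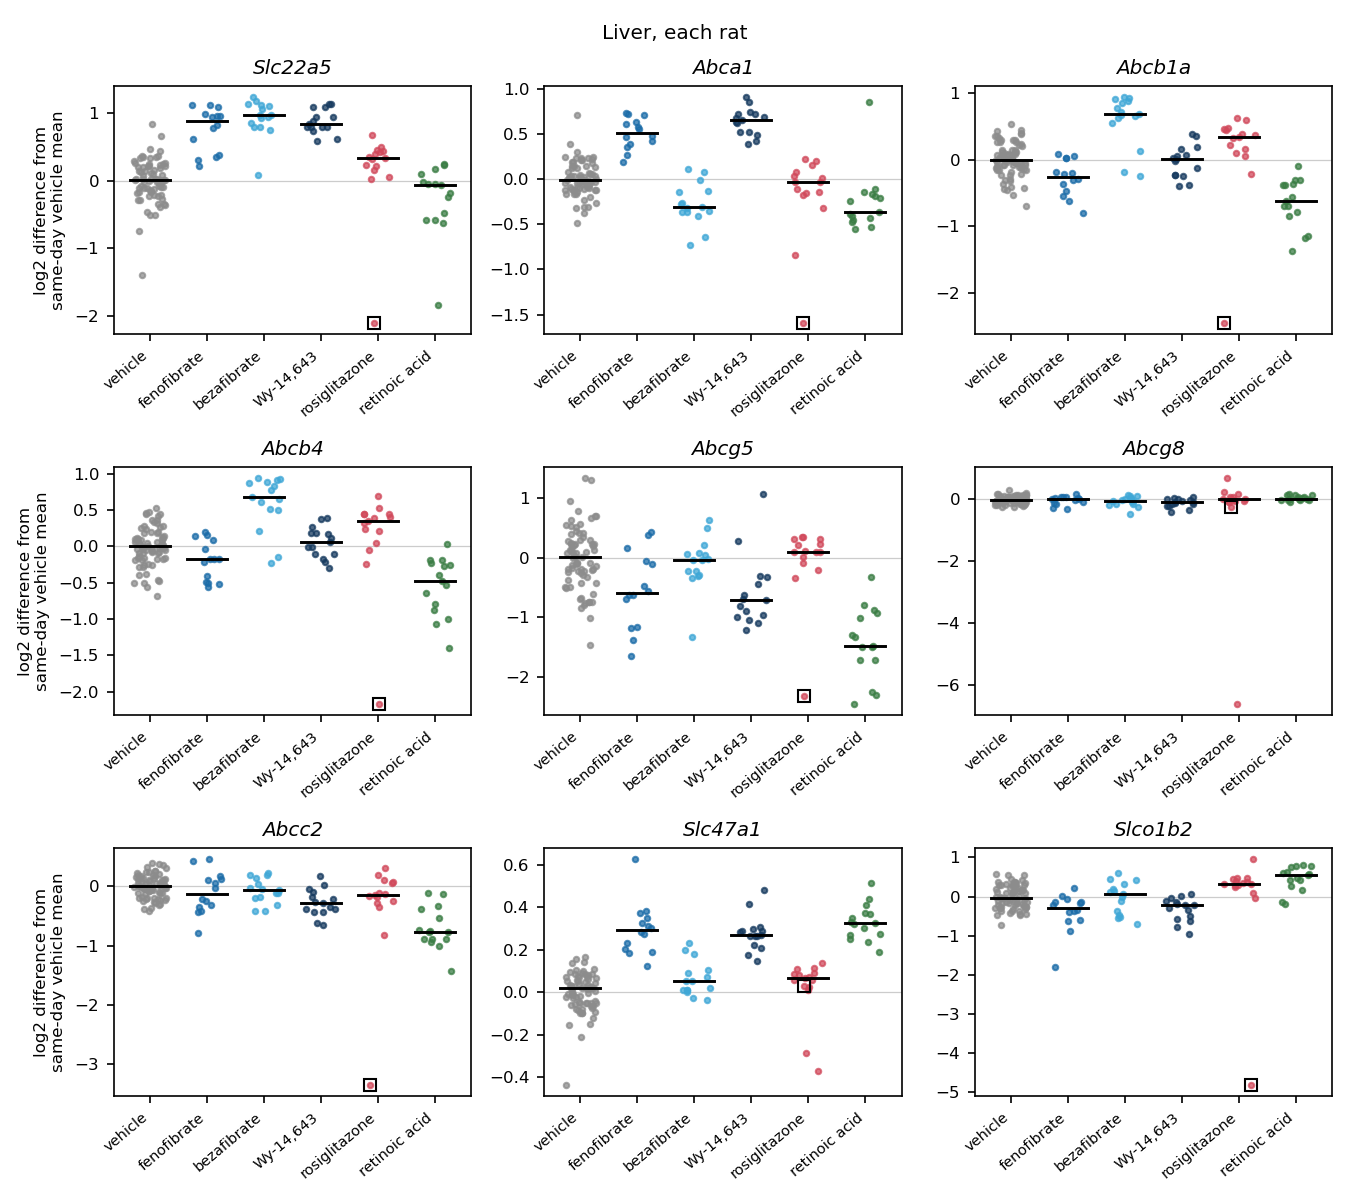
Level of 9 transporters in each liver (y axis, log2 minus the same-day vehicle mean; one point per rat, groups along the x axis), with a black bar at each group's median and a square for rosiglitazone rat 1376. Slc22a5 medians with the 3 PPARA agonists lie between 0.84 and 0.97, all 15 retinoic acid rats are above every vehicle rat for Slc47a1, and the square lies far below its group for Slco1b2 at -4.81.

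Among the cholesterol transporters, Abca1 moved in opposite directions with the PPARA agonists, and Abcg5 fell most with retinoic acid while its partner Abcg8 did not pass. Abca1 loads cholesterol and phospholipid onto apolipoprotein A-I. Vehicle livers ran from -0.49 through a median of -0.01 to 0.70 for Abca1. The fenofibrate rats ran from 0.19 through 0.51 to 0.73, and the Wy-14,643 rats from 0.39 through 0.65 to 0.90, all above the vehicle mean. The bezafibrate rats ran from -0.73 through -0.31 to 0.11. The Abca1 effects were 0.51 ± 0.07 with fenofibrate (adjusted p = 4.7e-09), 0.64 ± 0.07 with Wy-14,643 (adjusted p = 7.7e-14) and -0.28 ± 0.07 with bezafibrate (adjusted p = 0.0015). The bezafibrate call of Abca1 was lost with 1 probe per gene (-0.19, adjusted p = 0.13). Retinoic acid lowered Abca1 in 14 of 15 rats (-0.26 ± 0.07, adjusted p = 0.0024). The rosiglitazone effect on Abca1 (-0.18, adjusted p = 0.046) was lost without rat 1376 (-0.07, adjusted p = 0.45). Abcg1, which passes cholesterol to formed HDL, rose with the same compounds, by 0.21 ± 0.03 with fenofibrate (adjusted p = 1.6e-07) and 0.16 ± 0.03 with Wy-14,643 (adjusted p = 1.8e-05). With bezafibrate Abcg1 was at -0.01 ± 0.03. Fenofibrate and bezafibrate were given at different doses, so their values stand side by side and were not compared.

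Abcg5 and Abcg8 form a heterodimer that puts sterols into bile. Abcg5 levels in vehicle livers ran from -1.45 through 0.02 to 1.34, and in retinoic acid livers from -2.45 through -1.48 to -0.31. All 15 retinoic acid rats were below the vehicle mean and 8 were below every vehicle rat. The Abcg5 effect was -1.43 ± 0.15 (adjusted p = 4.4e-14), 0.372 of the vehicle value, the largest of any member in liver. By day, with 3 retinoic acid rats on each, it was -0.67 on day 2, then -1.54, -1.74, -1.71 and -1.48. Wy-14,643 lowered Abcg5 as well (-0.58 ± 0.15, adjusted p = 9.5e-04), with 13 of 15 rats below the vehicle mean. Fenofibrate lowered Abcg5 too, with effects of 0.01, 0.17, -0.79, -1.0 and -0.83 from day 2 to day 6 and an average of -0.49 ± 0.16 (adjusted p = 0.0095). That call was lost when arrays were scaled to one spread (-0.34, adjusted p = 0.091). With bezafibrate Abcg5 was at -0.08 ± 0.15.

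Abcg8 lay within a narrow range in vehicle livers, from -0.24 through -0.01 to 0.29, and retinoic acid rats ran from -0.10 through 0.02 to 0.16. The Abcg8 effect of retinoic acid was 0.04, with a 95% interval from -0.24 to 0.33, which does not reach the Abcg5 interval of -1.73 to -1.13. The interval of Abcg8 is wide for its narrow range because the fit shares 1 variance over groups, and the rosiglitazone group holds 1 value of -6.60 (rat 1373, day 4), near the limit of the deposited ratios. The rosiglitazone call of Abcg8 (-0.39, adjusted p = 0.041) rests on that value: without day 4 it was 0.07 (adjusted p = 0.27). Abcg5 and Abcg8 had 1 probe each, and intensities were not used, so a probe too dim to follow its transcript would also stay near 0. The 2 genes lie head to head on chromosome 6 with starts 206 bases apart, and the stretch between them is shown because it serves both. It is read on the plus strand toward Abcg5, at chr6:15717731-15717935 of GRCr8 (RefSeq), and the capitals mark a GATA site (GATAAG).
Abcg5 to Abcg8: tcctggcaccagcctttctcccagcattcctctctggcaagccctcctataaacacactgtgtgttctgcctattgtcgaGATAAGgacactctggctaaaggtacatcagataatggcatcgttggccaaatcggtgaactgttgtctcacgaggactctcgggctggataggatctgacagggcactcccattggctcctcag
GATAAG was in 7.05% of all promoter windows, searched on both strands, and in 4 of the members' 51.

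Abca8a, whose substrates are less settled and include cholesterol, was the member that Wy-14,643 and fenofibrate lowered most. Levels in vehicle livers ran from -0.82 through -0.07 to 0.59, fenofibrate livers from -1.69 through -0.83 to -0.18, and Wy-14,643 livers from -1.84 through -1.14 to -0.22. All rats of both groups were below the vehicle mean, and 7 and 11 of them were below every vehicle rat. The Abca8a effect was -1.10 ± 0.11 with Wy-14,643 (adjusted p = 2.3e-15, 0.468 of the vehicle value) and -0.90 ± 0.12 with fenofibrate (adjusted p = 1.2e-10). Retinoic acid lowered Abca8a by a smaller amount (-0.45 ± 0.11, adjusted p = 7e-04), and bezafibrate did not pass (-0.26, adjusted p = 0.087). Markers of other liver cells moved with the same compounds. Of 6 Kupffer cell and macrophage markers tested, 5 fell with fenofibrate and 5 with Wy-14,643 (medians of -0.41 and -0.42), and of 5 endothelial markers 4 and 3 fell. Of 6 stellate cell and fibroblast markers 2 fell with fenofibrate, and of 4 markers of bile duct cells 1 rose with each. With bezafibrate 2 of 6 macrophage markers and 1 of 5 endothelial markers fell, and with retinoic acid 1 of 5 macrophage markers fell. Of 7 hepatocyte markers tested, 2 fell with each PPARA agonist, and with retinoic acid 2 rose and 3 fell, the lowest at -1.53. Of 4 erythroid markers, 3 fell and 1 rose with fenofibrate (median -0.40), 2 fell and 1 rose with Wy-14,643, 1 fell with bezafibrate, and 1 rose and 1 fell with retinoic acid. Beside these counts, 37% of all features were called with fenofibrate, 21.3% with bezafibrate, 40.2% with Wy-14,643 and 29.2% with retinoic acid. The 28.6% of hepatocyte markers called with each PPARA agonist lay near or under these shares. In whole tissue, fewer cells of a type and less RNA per cell cannot be told apart. The part of these cells in the transporter results was not tested.

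Neighbouring genes on chromosome 4 carry the drug efflux pumps Abcb1a and Abcb1b (the rodent P-glycoproteins) and Abcb4, which moves phosphatidylcholine into bile. Bezafibrate raised Abcb1a and Abcb4 by the same amount, and retinoic acid lowered both. Vehicle livers ran from -0.70 through 0.00 to 0.54 for Abcb1a and from -0.68 through 0.00 to 0.53 for Abcb4. Bezafibrate livers ran from -0.25 through 0.69 to 0.94 and from -0.23 through 0.68 to 0.94, with 12 and 10 of 15 rats above every vehicle rat. In retinoic acid livers the values were -1.37, -0.63 and -0.10 for Abcb1a and -1.41, -0.48 and 0.03 for Abcb4. The bezafibrate effects were 0.59 ± 0.10 for Abcb1a (adjusted p = 9.5e-07) and 0.59 ± 0.10 for Abcb4 (adjusted p = 6.1e-07). The retinoic acid effects were -0.65 ± 0.10 (adjusted p = 3.3e-08) and -0.55 ± 0.10 (adjusted p = 1.5e-06). Wy-14,643 left both near the vehicle level (-0.02 and 0.05). Fenofibrate gave -0.27 for Abcb1a (adjusted p = 0.028) and -0.19 for Abcb4 (adjusted p = 0.13). The probes of Abcb1a lay close together (0.57 to 0.62 with bezafibrate). Abcb1a, Abcb1b and Abcb4 are close relatives, so probes may cross-hybridise and values of one can carry signal of another.

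Abcb1b was called with bezafibrate (0.30), fenofibrate (-0.33) and retinoic acid (-0.40), but its 3 probes disagreed. With bezafibrate the Abcb1b probes gave -0.07, 0.91 and 0.07, with fenofibrate -0.21, 0.00 and -0.79, and with retinoic acid -0.13, -0.18 and -0.88. The sizes of the Abcb1b effects therefore come mostly from 1 probe each. With retinoic acid all 3 probes fell, and the call was kept under every other setting. The bezafibrate call was lost with 1 probe per gene (-0.067, adjusted p = 0.4) and without some single days. The fenofibrate call was lost with arrays scaled to one spread (-0.205, adjusted p = 0.14) and without day 3 (-0.274, adjusted p = 0.068). The bases before the starts of Abcb1a (chr4:26397649-26397898) and Abcb1b (chr4:26280030-26280279), both on the minus strand of GRCr8 (RefSeq), are shown because the pair are recent duplicates. The capitals mark the longest run of letters they share, 11 bases.
Abcb1a: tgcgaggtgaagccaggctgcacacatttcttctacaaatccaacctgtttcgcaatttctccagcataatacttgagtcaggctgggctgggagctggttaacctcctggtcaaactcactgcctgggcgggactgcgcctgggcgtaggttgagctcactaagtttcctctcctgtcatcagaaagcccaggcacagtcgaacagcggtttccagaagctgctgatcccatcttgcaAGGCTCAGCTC
Abcb1b: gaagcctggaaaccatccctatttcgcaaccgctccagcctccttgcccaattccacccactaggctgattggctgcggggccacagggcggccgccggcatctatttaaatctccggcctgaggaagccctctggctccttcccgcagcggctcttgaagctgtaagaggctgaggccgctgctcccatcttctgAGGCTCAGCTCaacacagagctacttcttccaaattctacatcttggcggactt
That run, AGGCTCAGCTC, was in 0.0568% of all promoter windows, searched on both strands. Abcb11, the bile salt export pump, was at 0.28 ± 0.10 with bezafibrate (adjusted p = 0.043) and did not pass with the other compounds with all rats included.

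Among the uptake carriers of the sinusoidal membrane, Slco1b2 and Slco1a4 rose with different compounds with all rats included. Without rat 1376 both also rose with rosiglitazone, as given below. Slc10a1 (NTCP), the main sodium-linked bile salt carrier, did not pass with any compound with all rats included: its effects ran from -0.22 with Wy-14,643 (adjusted p = 0.20) to 0.22 with retinoic acid (adjusted p = 0.24). Slco1b2, the main sodium-independent anion carrier of rodent liver, ran from -0.73 through -0.03 to 0.58 in vehicle livers and from -0.20 through 0.55 to 0.81 with retinoic acid. Retinoic acid raised Slco1b2 by 0.46 ± 0.15 (adjusted p = 0.010), in 13 of 15 rats. Fenofibrate lowered Slco1b2 by an effect of -0.39 ± 0.15 (adjusted p = 0.033). Slco1a4, which also carries bile salts and digoxin, rose with Wy-14,643 in 14 of 15 rats (0.54 ± 0.15, adjusted p = 0.0027), where vehicle livers ran from -0.92 through 0.00 to 0.94 and treated livers from -0.33 through 0.59 to 1.08. Slco1a1 fell with retinoic acid in 14 of 15 rats (-0.35 ± 0.11, adjusted p = 0.0075). The Slco1a genes are near copies of each other, so their probes may share signal.

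Slco2b1, a broad anion carrier, was the only member that fell with all 3 PPARA agonists. Levels in vehicle livers ran from -0.37 through 0.01 to 0.38, and Wy-14,643 livers from -0.83 through -0.45 to -0.05, with 11 of 15 below every vehicle rat. The Slco2b1 effects were -0.50 ± 0.06 with Wy-14,643 (adjusted p = 6.9e-11), -0.26 ± 0.07 with fenofibrate (adjusted p = 9.2e-04) and -0.17 ± 0.06 with bezafibrate (adjusted p = 0.045). The bezafibrate call of Slco2b1 was lost with array medians subtracted (-0.16, adjusted p = 0.059) and without any 1 of days 2, 4, 5 and 6 (-0.13, adjusted p = 0.29 without day 6). Slco2b1 was also called with rosiglitazone (-0.24) and retinoic acid (-0.22), and the rosiglitazone call was lost without rat 1376 (-0.15, adjusted p = 0.071). Slco2a1, the prostaglandin carrier, fell with bezafibrate (-0.37 ± 0.09, adjusted p = 0.0011) and retinoic acid (-0.41 ± 0.09, adjusted p = 1.4e-04). With fenofibrate Slco2a1 rose (0.25 ± 0.09, adjusted p = 0.031).

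Of 28 tested genes of bile acid synthesis, its regulators and membrane scaffolds, 6 rose and 4 fell with fenofibrate, 2 rose and 9 fell with bezafibrate, and 5 rose and 8 fell with Wy-14,643. Retinoic acid raised 4 and lowered 9, and rosiglitazone raised 0 and lowered 12 with rat 1376, and 2 and 5 without it. As shares, 35.7%, 39.3%, 46.4%, 46.4% and 42.9% of the listed genes were called with fenofibrate, bezafibrate, Wy-14,643, retinoic acid and rosiglitazone (25% without rat 1376), beside the shares of all features given above. Cyp7a1, the rate-limiting enzyme of bile acid synthesis, fell with bezafibrate (-2.79 ± 0.31) and retinoic acid (-3.52 ± 0.31). Nr1i3 (CAR), a regulator of several transporters, rose with fenofibrate (0.89 ± 0.10), bezafibrate (0.40 ± 0.09) and Wy-14,643 (0.88 ± 0.09). Ppara itself fell with retinoic acid (-0.74 ± 0.09, adjusted p = 2.5e-12). Pdzk1, a scaffold that holds Slco and Slc22a carriers at the membrane, fell with fenofibrate (-0.57), bezafibrate (-0.47), Wy-14,643 (-0.55) and retinoic acid (-0.48).

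The conjugate exporters split by compound. Abcc2 (MRP2) exports glucuronides and bilirubin conjugates into bile. Vehicle livers ran from -0.41 through 0.00 to 0.39, and retinoic acid livers from -1.43 through -0.77 to -0.10, with 11 of 15 below every vehicle rat. Retinoic acid lowered Abcc2 by an effect of -0.70 ± 0.10 (adjusted p = 2.3e-09, 0.614 of the vehicle value), and Wy-14,643 by a smaller one (-0.28 ± 0.10, adjusted p = 0.016). The rosiglitazone call of Abcc2 (-0.34, adjusted p = 0.0081) was lost without rat 1376 (-0.12, adjusted p = 0.26). Abcc3 (MRP3), on the blood side, rose with rosiglitazone, from -0.05 through 0.29 to 0.98 against -0.35 through -0.02 to 0.48 in vehicle livers. Its effect was 0.38 ± 0.05 with all rats (adjusted p = 1e-07) and 0.35 ± 0.06 without rat 1376 (adjusted p = 2.3e-06). Abcc3 also rose with fenofibrate (0.23 ± 0.06, adjusted p = 6.7e-04) and fell with retinoic acid in 15 of 15 rats (-0.21 ± 0.05, adjusted p = 0.0015). Its 6 probes ran from 0.00 to 0.44 with fenofibrate, from 0.11 to 0.63 with rosiglitazone and from -0.52 to 0.04 with retinoic acid, so not all fell. Abcc4 (MRP4), a second blood-side exporter, moved little: 0.14 ± 0.03 with fenofibrate (adjusted p = 9.8e-05) and 0.18 ± 0.03 with retinoic acid (adjusted p = 9.5e-07).

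The bases before Abcc2 are shown because it held a match to the repeat that retinoic acid receptors bind (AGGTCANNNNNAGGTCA, a spacing of 5 bases, both strands, up to 2 mismatches). They lie at chr1:252613625-252613874 on the plus strand of GRCr8 (RefSeq), and the capitals mark the match, which starts at position -166 from the gene start.
Abcc2: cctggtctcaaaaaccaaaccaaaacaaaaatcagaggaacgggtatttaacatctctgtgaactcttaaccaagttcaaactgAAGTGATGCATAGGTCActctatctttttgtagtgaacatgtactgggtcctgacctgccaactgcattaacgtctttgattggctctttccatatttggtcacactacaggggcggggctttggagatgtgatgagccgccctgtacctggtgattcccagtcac
The repeat was in 2.83% of all promoter windows and in 2 of the members' 51. The other was Slc10a1, at position -197 (AGGTCATGGGTGGGTCT), which did not pass with retinoic acid with all rats included. The liver array that stood apart read Slc10a1 very low and entered the variance of that test. The result therefore does not show that Slc10a1 was unchanged. A match is a description of letters, not a bound site.

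The proton-coupled cation exporter Slc47a1 (MATE1) gave small but very even rises. Levels in vehicle livers ran from -0.44 through 0.02 to 0.17 and retinoic acid livers from 0.19 through 0.33 to 0.52, so all 15 treated rats lay above all 73 vehicle rats. Of the fenofibrate and Wy-14,643 rats, 13 of 14 and 14 of 15 lay above the vehicle range. The Slc47a1 effects were 0.33 ± 0.03 with retinoic acid (adjusted p = 1.1e-19), 0.30 ± 0.03 with fenofibrate (adjusted p = 6.6e-16) and 0.28 ± 0.03 with Wy-14,643 (adjusted p = 8.9e-16), folds of 1.26, 1.23 and 1.21. Bezafibrate (0.07, adjusted p = 0.083) and rosiglitazone (0.02, adjusted p = 0.67) did not pass.

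Slc22a23, a carrier of unknown substrate, was raised by fenofibrate and Wy-14,643 and lowered by retinoic acid. Vehicle livers ran from -0.48 through 0.01 to 0.31, Wy-14,643 livers from 0.11 through 0.31 to 0.82, and retinoic acid livers from -1.34 through -0.43 to 0.32. The Slc22a23 effects were 0.31 ± 0.07 with fenofibrate (adjusted p = 2.3e-04), 0.38 ± 0.07 with Wy-14,643 (adjusted p = 1.2e-06) and -0.44 ± 0.07 with retinoic acid (adjusted p = 6.7e-08). Rosiglitazone lowered Slc22a23 too, by -0.28 with all rats and -0.17 without rat 1376 (adjusted p = 0.037). With bezafibrate Slc22a23 was not called. The bases before its start are shown because fenofibrate and Wy-14,643 moved the gene in the direction opposite to retinoic acid. They hold 1 copy of the single receptor motif AGGTCA, in capitals. They lie at chr17:30749195-30749444 on the plus strand of GRCr8 (RefSeq).
Slc22a23: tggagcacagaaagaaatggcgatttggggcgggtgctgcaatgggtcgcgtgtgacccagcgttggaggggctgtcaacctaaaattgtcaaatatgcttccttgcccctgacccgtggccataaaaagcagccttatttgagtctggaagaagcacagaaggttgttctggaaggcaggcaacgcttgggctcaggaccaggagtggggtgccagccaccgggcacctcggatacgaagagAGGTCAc
This motif was in 16.2% of all windows (both strands) and in 10 of the members' 51.

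Abcb9, a lysosomal peptide transporter, rose most with Wy-14,643. Levels in vehicle livers ran from -0.36 through -0.01 to 0.44 and Wy-14,643 livers from 0.08 through 0.73 to 1.31, with 13 of 15 above every vehicle rat. The Abcb9 effect was 0.75 ± 0.06 with Wy-14,643 (adjusted p = 6e-20), 0.36 ± 0.07 with fenofibrate (adjusted p = 2.6e-06) and -0.22 ± 0.06 with bezafibrate (adjusted p = 0.0061). The size for Abcb9 rests on 1 of 3 probes: with Wy-14,643 they gave 0.19, 1.84 and 0.22, and with fenofibrate 0.02, 0.92 and 0.15. Abcg3l2, a rodent relative of Abcg2 of unsettled function, rose with retinoic acid in 15 of 15 rats, from 0.05 through 0.70 to 1.52, against -0.57 through 0.00 to 0.54 in vehicle livers. Its effect was 0.75 ± 0.09 (adjusted p = 9.8e-13), and its relative Abcg3l1 rose by 0.28 ± 0.05 (adjusted p = 3.4e-07). Abcg2 (BCRP) itself did not pass with any compound, its effects running from -0.22 to 0.16. Over all members, 97 called results came from genes with more than 1 probe. In 19 of these the probes pointed in both directions, and in 3 they did so by more than 2 SE each way.

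Rosiglitazone in liver depended on rat 1376. On that array the liver carriers read very low, with Slc10a1 at -5.0 and Slco1b2 at -4.81, while rat 1373 of the same group and day read 0.30 and 0.46. Of the 16 members called without the array, 8 were among the 18 called with it. Those that rose without the array were Slco1a4 (0.48 ± 0.13, adjusted p = 0.0039), Slco1b2 (0.35 ± 0.10, adjusted p = 0.0071), Abcc3 (0.35), Slc22a5 (0.32), Abcb1a (0.30), Abcb4 (0.29), Slc10a1 (0.25), Slc22a4 (0.23) and Abcb11 (0.17). Of these, Abcc3 and Slc22a4 were also called with the array. Slc22a17, a receptor for lipocalin 2, fell in both (-0.33 and -0.34). With all arrays, 3 of 5 skeletal muscle markers rose with rosiglitazone in liver, 2 of 7 hepatocyte markers and 1 of 4 bile duct markers fell, and 1 of 4 adipocyte markers, Fabp4, rose by 0.60. Without the array 0 of 5 muscle and 0 of 7 hepatocyte markers were called by limma, the bile duct marker still fell, and Fabp4 rose by 0.30. Of all features 22.7% were called with the array and 18.6% without it. The skeletal muscle markers were also used to flag this array, so their counts with and without it were partly set by that choice. The part of muscle, hepatocyte, bile duct and fat cells in the rosiglitazone results was not tested. Weighting arrays by their quality left 2 members called, with 2.11% of all features called.

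Few transporters had a called linear trend over the days, a test that can miss a step between days. The median SE of a member's trend was 0.029 per day for the PPARA mean and 0.043 for rosiglitazone and for retinoic acid. A trend per day averaged over the PPARA agonists called 0 members by limma, with 5 at an unadjusted p below 0.05 and 0.838% of all features called. With rosiglitazone 1 member passed, with 0.196% of all features called: Abcc3 rose by 0.16 ± 0.04 per day (adjusted p = 0.027), with effects of 0.05, 0.17, 0.48, 0.48 and 0.71 from day 2 to day 6. Without rat 1376 the Abcc3 trend was 0.16 ± 0.04 per day (adjusted p = 0.020). With retinoic acid 1 member passed, with 9.38% of all features called: Abca7 fell by 0.06 per day (adjusted p = 0.0032), from 0.15 on day 2 to -0.12 on day 6. Without the doubted arrays 1 member passed for the PPARA mean (1.62% of all features) and 4 for retinoic acid (12.8%). Abcb9 with Wy-14,643 had day effects of 0.50, 0.62, 0.65, 1.01 and 0.96, a trend that was not tested for that compound alone. For Slc22a23 with retinoic acid the effect was 0.10 on day 2 and between -0.78 and -0.45 on the later days.

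Other liver calls named above were lost under at least 1 other setting. The settings given for a lost call, here and above, are examples, and others that ended it are not all listed. With 1 probe per gene, Abcb9 with fenofibrate was at 0.02 (adjusted p = 0.86), and Abcc4 at 0.02 with fenofibrate and 0.10 with retinoic acid. Leaving out a single day ended the calls of Abcb1a, Slco1b2 and Slco2a1 with fenofibrate, Abcb11 and Abcb9 with bezafibrate, Abcc2 with Wy-14,643, and Slco1b2, Slco1a1 and Slco2b1 with retinoic acid. Array quality weights ended the rosiglitazone calls of Slc22a4 and Slc22a23.

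**Figure D3:**
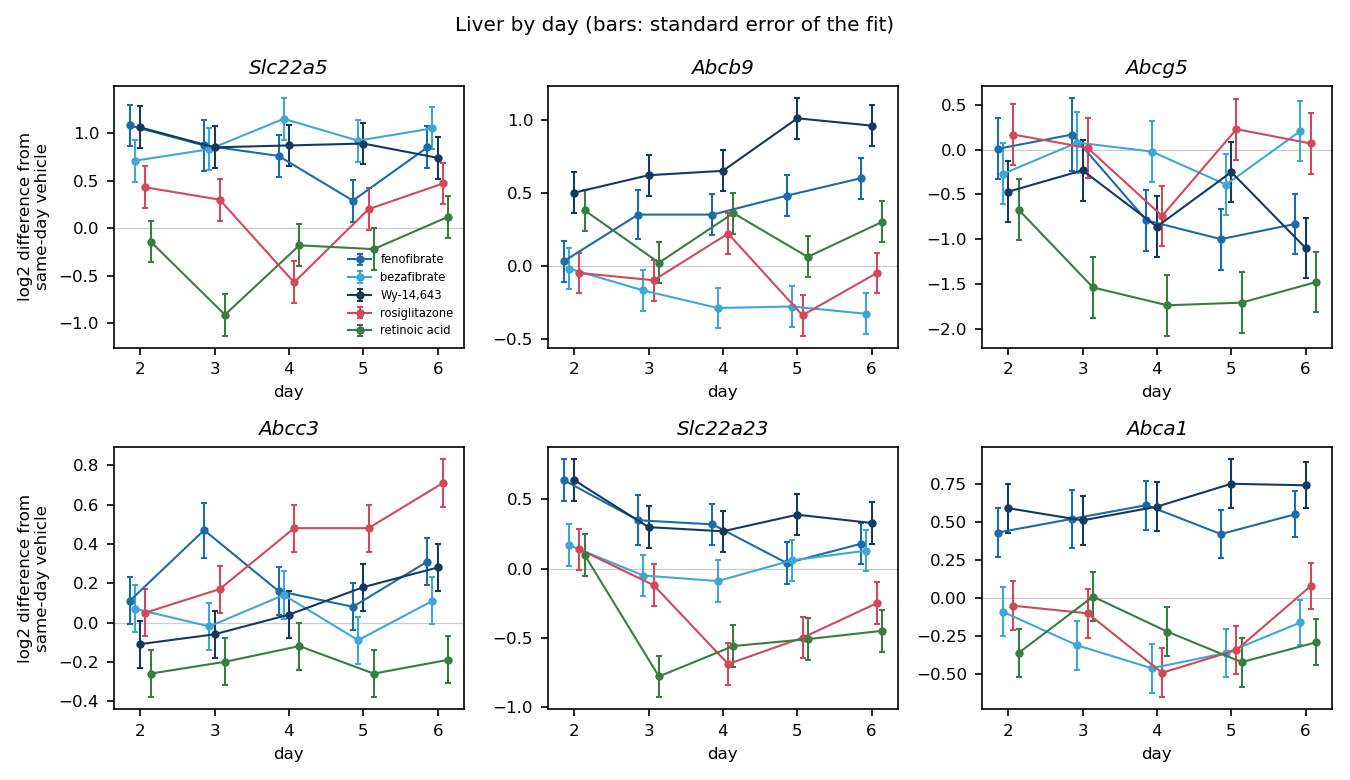
Liver effect (y axis, log2 against same-day vehicle rats, mean with SE of the fit) of each compound on 6 transporters by day (x axis, days 2 to 6); rosiglitazone on day 4 includes rat 1376. Slc22a5 is high with the PPARA agonists from day 2, Abcg5 with retinoic acid goes from -0.67 on day 2 to -1.74 on day 4, and Abcc3 with rosiglitazone goes from 0.05 to 0.71.

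Wy-14,643 and rosiglitazone were given at the same dose of 100 and were compared directly in liver. Of the members 20 differed, where 30.1% of all features differed, and without rat 1376 it was 22 members and 34.1% of all features. The largest differences were Abca8a at -1.02 ± 0.14 (adjusted p = 5.6e-09), Abca1 at 0.82 ± 0.09 (adjusted p = 3e-13), Abcb9 at 0.81 ± 0.08 (adjusted p = 3.5e-15), Slc22a5 at 0.72 ± 0.13 (adjusted p = 3.6e-06) and Slc22a23 at 0.67 ± 0.09 (adjusted p = 4.9e-10). Without rat 1376 these were -1.10, 0.71, 0.89, 0.56 and 0.55, and each passed. Abcc3 was lower with Wy-14,643 than with rosiglitazone (-0.31 ± 0.07, adjusted p = 2e-04; -0.28 without rat 1376, adjusted p = 7.2e-04). No difference was called for Abcc2 (0.06, 95% interval from -0.19 to 0.31) or Abcb4 (-0.08, from -0.33 to 0.16). Without rat 1376 these were -0.16 for Abcc2 (from -0.34 to 0.02, adjusted p = 0.17) and -0.24 for Abcb4 (from -0.46 to -0.02, adjusted p = 0.088). For Slco1b2 the difference passed without rat 1376 (-0.68 ± 0.13, adjusted p = 8.8e-06) and not with it (-0.34, from -0.71 to 0.04).

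Retinoic acid was set against the mean of the 3 PPARA agonists in liver. This is a contrast of fixed groups at unequal doses, so its sizes describe these treatments only. Here 26 members differed, with 36.9% of all features called. Slc22a5 differed by -1.13 ± 0.11 (adjusted p = 2.6e-17) and Abcg5 by -1.04 ± 0.16 (adjusted p = 2.9e-08). Abcb1a (-0.75) and Abcb4 (-0.70) were lower with retinoic acid, and Abcg3l2 (0.90 ± 0.09, adjusted p = 1.3e-15) and Slco1b2 (0.71 ± 0.15, adjusted p = 7.7e-05) were higher. The PPARA mean is not a common response for every member: 5 members were called in both directions by the 3 agonists. Abcb1a was one of them, higher with bezafibrate and lower with fenofibrate.

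In the muscles few transporters moved. In soleus the calls were 2 with fenofibrate (3.33% of all features called), 2 with bezafibrate (0.904%) and 3 with rosiglitazone (2.63%). Limma called 0 members with Wy-14,643 (0.191% of all features) and 0 with retinoic acid (2.85%), where 3 and 8 had an unadjusted p below 0.05. In quad they were 1 with fenofibrate (5.69%), 2 with bezafibrate (1.63%) and 4 with rosiglitazone (6.86%), and limma called 0 with Wy-14,643 (0.0163%) and 0 with retinoic acid (2.42%), where 4 and 2 had an unadjusted p below 0.05. The mean of the PPARA agonists called 4 members in soleus (1.96%), and in quad limma called 0 (0.841%), where 5 had an unadjusted p below 0.05. In each muscle 7 of 60 members (11.7%) were called by at least 1 compound, where 8.1% of all features were in soleus and 14.4% in quad. Without the doubted arrays 8 members (13.3%) were called in each muscle. The share of all features was then 13.3% in soleus and 16.2% in quad. The median SE of a member was 0.063 with bezafibrate in soleus and 0.039 in quad. With bezafibrate, a soleus effect well under 0.2 would therefore not be called at that SE. Smaller effects could pass where the SE was smaller. Abcc1 with the PPARA mean in soleus was called at -0.125, a call lost with 1 probe per gene.

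The strongest transporter response in muscle was Slc22a3 (OCT3), a carrier of monoamines and organic cations, with bezafibrate in soleus. Vehicle soleus ran from -1.46 through 0.03 to 0.83, and bezafibrate soleus from -0.39 through 0.58 to 1.80, with 17 of 20 rats above the vehicle mean and 8 above every vehicle rat. The Slc22a3 effect was 0.665 ± 0.115 (adjusted p = 1.1e-04), and 0.62 ± 0.11 without the doubted arrays (adjusted p = 1.6e-04). No compound passed for Slc22a3 in quad, where bezafibrate without the doubted arrays gave 0.02 ± 0.08. Fenofibrate in soleus raised Slc22a5 (0.25 ± 0.05, adjusted p = 0.0015) and Abcb10, a mitochondrial inner membrane transporter (0.29 ± 0.06, adjusted p = 0.0018), each in 17 of 19 rats. Both calls were lost without day 5, to 0.20 for Slc22a5 (adjusted p = 0.071) and 0.21 for Abcb10 (adjusted p = 0.17). In quad Slc22a5 rose with bezafibrate (0.14 ± 0.04, adjusted p = 0.026), in 17 of 20 rats, a call lost without any 1 of days 3 to 6 (adjusted p = 0.17 without day 4).

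Abcc1 (MRP1), a general exporter of glutathione conjugates, fell slightly with bezafibrate in both muscles. In soleus all 20 rats were below the vehicle mean (-0.20 ± 0.05, adjusted p = 0.013), a call lost without day 4 (adjusted p = 0.13) or day 5 (adjusted p = 0.24). In quad 18 of 20 rats were (-0.10 ± 0.03, adjusted p = 0.037), a call lost without rat 1256. Abcd2, which brings very long chain fatty acids into peroxisomes, fell with fenofibrate in quad (-0.24 ± 0.07, adjusted p = 0.029), and this call was lost without rat 1157 (-0.15, adjusted p = 0.32).

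Rosiglitazone raised Slco2b1 in both muscles. In quad vehicle rats ran from -0.40 through 0.00 to 0.92 and rosiglitazone rats from -0.01 through 0.26 to 0.53, 15 of 16 above the vehicle mean. The Slco2b1 effect was 0.28 ± 0.06 in quad (adjusted p = 5.2e-04) and 0.24 ± 0.07 in soleus (adjusted p = 0.037). Slc22a17 fell in both, by -0.27 ± 0.07 in soleus (adjusted p = 0.024) and -0.21 ± 0.06 in quad (adjusted p = 0.017). In soleus Slc10a3 also rose (0.22 ± 0.07, adjusted p = 0.048), and the 3 soleus calls, Slco2b1, Slc22a17 and Slc10a3, were all lost without vehicle rat 1061 alone, and passed without all 3 doubted soleus arrays (adjusted p = 0.021, 0.024 and 0.035). In quad Abcc10 rose (0.19 ± 0.05, adjusted p = 0.0039), as did Abcc8, the sulfonylurea receptor (0.15 ± 0.05, adjusted p = 0.049). The quad calls of Slc22a17, Abcc10 and Abcc8 were lost when some single days were left out. Markers of other cell types moved with rosiglitazone: of 4 adipocyte markers 1, Fabp4, rose by 1.36 in each muscle. Of 6 endothelial markers 2 rose in each muscle, while 1 fell in soleus and 2 in quad. Of all features 2.63% were called with rosiglitazone in soleus and 6.86% in quad. The part of fat and endothelial cells in the transporter results was not tested. Against Wy-14,643 at the same dose, Slco2b1 was higher with rosiglitazone in soleus (Wy-14,643 minus rosiglitazone -0.28 ± 0.08, adjusted p = 0.043) and quad (-0.41 ± 0.08, adjusted p = 8e-05). Of the members 1 differed in soleus (1.55% of all features) and 3 in quad (3.9%), Abcc8 and Abcc10 being the others. Retinoic acid against the PPARA agonist mean in soleus gave 3 members (2.94% of all features): Abca8a (-0.34 ± 0.09, adjusted p = 0.0073) and Slc22a5 (-0.19 ± 0.05, adjusted p = 0.0048) were lower with retinoic acid, and Abcb4 was higher (0.19 ± 0.05, adjusted p = 0.021).

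**Figure D4:**
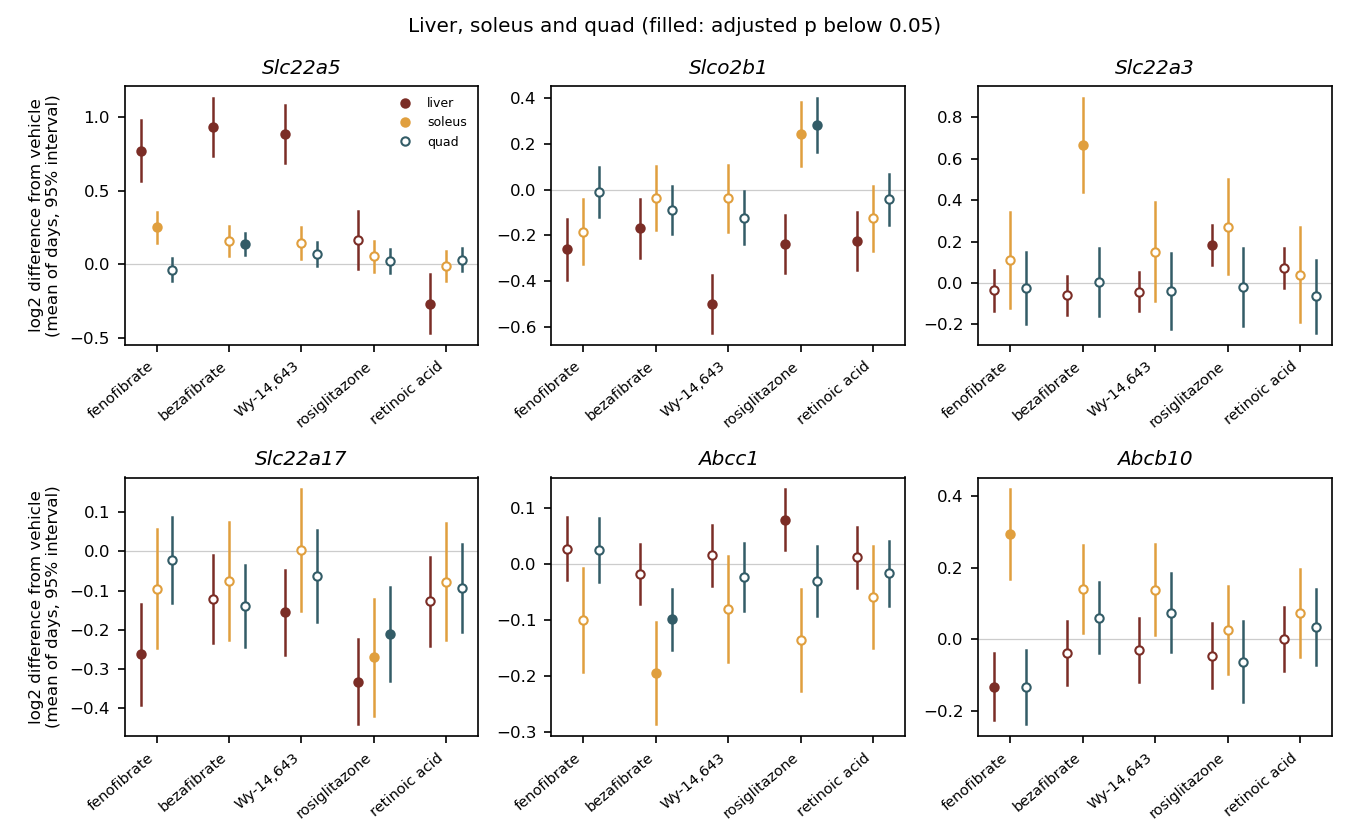
Effect of each compound on 6 transporters in liver, soleus and quad (y axis, log2 against same-day vehicle rats; bars show the 95% interval, filled points are called). Slc22a5 with the PPARA agonists lies at 0.77 to 0.93 in liver and at or below 0.25 in the muscles, Slc22a3 stands out with bezafibrate in soleus, and Slco2b1 with rosiglitazone is below 0 in liver and above 0 in both muscles.

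Differences between tissues were tested directly, as the liver effect minus the muscle effect. For the PPARA agonist mean 16 members differed between liver and soleus (24.3% of all features) and 14 between liver and quad (28.9%). For Slc22a5 the difference was 0.68 ± 0.09 against soleus (adjusted p = 8.1e-12) and 0.80 ± 0.07 against quad (adjusted p = 3.1e-21). For retinoic acid 13 members differed against soleus (12.7%) and 16 against quad (15.9%), Abcg5 most, at -1.35 ± 0.17 and -1.45 ± 0.15. For rosiglitazone 5 differed against soleus (5.65%) and 12 against quad (13.6%), and without the doubted arrays 9 (8.39%) and 16 (15.7%). Among them Slco2b1 was -0.48 ± 0.10 against soleus (adjusted p = 2.1e-04) and -0.52 ± 0.09 against quad (adjusted p = 2.9e-06), and without the doubted arrays -0.39 (adjusted p = 0.0015) and -0.43 (adjusted p = 4.7e-05). Between soleus and quad limma called 0 members for the PPARA mean (0.267% of all features), 0 for rosiglitazone (0.0381%) and 0 for retinoic acid (0.0708%), where 13, 1 and 3 had an unadjusted p below 0.05.

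The 16 members for which no compound passed in liver, with all rats included, were Abca2, Abca4, Abca7, Abcd2, Abcg2, Abcg4, Slc10a1, Slc10a3, Slc22a2, Slc22a6, Slco1a3, Slco1a6, Slco3a1, Slco4a1, Slco6b1 and Slco6c1. Their effects ran from -0.30 to 0.42, both in Slco3a1, the member with the widest spread in vehicle livers (SD 0.806, from -1.87 to 1.31). A value of that spread hides effects that would pass for Slc47a1, whose vehicle SD was 0.093. For Slc22a2, the organic cation carrier best known from kidney, effects ran from -0.02 to 0.05 with an SE of 0.03.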

How the data were processed

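Total RNA of liver, soleus and quad was hybridised to 2-colour arrays. Per the labels' protocols, RNA was isolated with TRIzol and RNeasy and turned into labelled cRNA by reverse transcription and in vitro transcription. The authors deposited their log10 ratios as a single table, with 23653 probes and 484 arrays. Its normalisation is not given in the sources used here. The scale was inferred from values that centre on 0 and stop at -2 and 2 (a 100-fold limit). Those limits do not give the direction, which was inferred from the values and the channels (rat in Cy5, pool in Cy3). Each value was read as rat divided by pool and converted to log2 with a factor of 3.32, so another base would scale all effects together. No value was given for 0.907% of entries, and 699 were at the limit. The number of arrays limits the precision. The 54 arrays of EDL muscle were not used here.

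Probes were named through the platform annotation, in which 15260 named 1 gene, 17 several and 8376 none, and 15204 matched the rat gene table. Probes of a gene were averaged into 10210 genes, and with the other probes gave 18603 features, tested where at least 80% of values were present. Per tissue, limma 3.58.1 (R 4.3.3, statmod 1.5.0) fitted a mean to each combination of compound and day, and contrasts averaged the 5 days with equal weight. Tests were two-sided, from limma's moderated statistics, adjusted by Benjamini-Hochberg within a comparison at 0.05. Tissue differences were fitted on both tissues together. The scripts were tested on simulated data. Tables, motifs and figures were made with data.table (version 1.17.8), Python 3.11.15, pandas 2.3.3, NumPy 2.4.6 and matplotlib 3.10.9.

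The members, the gene lists (carnitine genes, bile acid genes and regulators, compound controls, well-known hepatic transporters, cell type markers) and the tests were chosen with earlier results of these data known. Genes with full statistics were the called members of a tissue with the largest effects against vehicle, up to 12 in liver, 8 in soleus and 8 in quad, 6 called bile acid genes per comparison, and the uncalled hepatic transporters. Slc47a1, Slc22a23, Slc22a4, Abcc3, Abcc4, Abcg1, Abcg8, Abcb1b, Abcb11, Abcg3l1, Slco1a1, Slco2a1, Slco3a1, Abca7 and Slc22a17 in liver, the carnitine genes and the promoters shown were chosen after their values were seen.

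Rat numbers in the labels mark the same animal in each tissue, so they pair the arrays. After subtracting the mean of tissue, compound and day, arrays of one rat correlated at a median of 0.132 between liver and soleus (106 rats), 0.137 between liver and quad (121 rats) and 0.249 between soleus and quad (111 rats), where other rats of the same compound and day gave -0.017, -0.014 and -0.046. Other settings were array medians set to 0, equal spread for all arrays, array quality weights, 1 probe per gene, the pool as reference, each day or the doubted arrays left out, and the rat as a block; leaving out doubted arrays one at a time was added after the data were seen.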

Additional observations from a re-analysis of the deposited data

Results flagged for a closer look

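In 76 results the effect of a compound on a transporter differed between tissues by a direct test, limma's contrast of the liver effect minus the muscle effect, adjusted over all features. The 16 with a difference of at least 0.5 in either direction are given here. For the PPARA agonist mean, Slc22a5 rose more in liver than in soleus (0.68 ± 0.09 SE, adjusted p = 8.1e-12) and quad (0.80 ± 0.07, adjusted p = 3.1e-21). Abca8a fell more in liver than in soleus (-0.84 ± 0.11, adjusted p = 4.3e-11) and quad (-0.79 ± 0.09, adjusted p = 1.7e-13).

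With retinoic acid, Abcg5 differed by -1.35 ± 0.17 against soleus (adjusted p = 1.1e-11) and -1.45 ± 0.15 against quad (adjusted p = 2.2e-15). The neighbours Abcb1a and Abcb4 were lower in liver, by -0.78 ± 0.13 (adjusted p = 6.1e-07) and -0.66 ± 0.12 (adjusted p = 2.6e-06) against soleus, and by -0.61 ± 0.12 (adjusted p = 5.7e-05) and -0.55 ± 0.11 (adjusted p = 5.9e-05) against quad. Abcc2 differed by -0.60 ± 0.12 against soleus (adjusted p = 7.1e-05) and -0.69 ± 0.10 against quad (adjusted p = 1.6e-08). Abcg3l2 was higher in liver by 0.77 ± 0.10 against soleus (adjusted p = 2.3e-11) and 0.77 ± 0.09 against quad (adjusted p = 8.6e-13), and Slco1b2 by 0.68 ± 0.21 against soleus (adjusted p = 0.021).

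With rosiglitazone, Slco2b1 differed between liver and quad by -0.52 ± 0.09 (adjusted p = 2.9e-06). No call of these differences was lost with the rat as a block.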

How the results depend on the processing

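Of the called effects against vehicle, 54 of 121 in liver kept their call under every alternative, 1 of 11 in soleus (Slc22a3 with bezafibrate) and 1 of 7 in quad (Slco2b1 with rosiglitazone). Subtracting array medians kept 265 of 270 calls, and scaling arrays to one spread 111 of 139. Paired by rat number (the replicate block), all 76 calls of tissue differences stayed, and the counts were 17, 5 and 13 for liver against soleus (PPARA mean, rosiglitazone, retinoic acid), 14, 13 and 16 for liver against quad and 0, 0 and 0 for soleus against quad.

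With 1 probe per gene, the sign turned for Abcb1b with bezafibrate (-0.067) and for retinoic acid against the PPARA mean (0.025), for Abcc4 with Wy-14,643 (-0.062) and the PPARA mean (-0.022), for Slc22a7 with rosiglitazone (0.006), for Abcb9 with retinoic acid (-0.098) and the PPARA mean (-0.045) and for Slco1a3 in retinoic acid against the PPARA mean (0.106). Without day 4, the rosiglitazone effect turned for Abcc1 (-0.021) and Abcg8 (0.067). Over the 5 days left out in turn, it ran from -0.021 to 0.107 for Abcc1 and from -0.554 to 0.067 for Abcg8. The construction (fewer probes, fewer rats) differs, and the cause was not tested.

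Smaller changes in the counts of called members also occurred and are not listed. The larger changes were as follows, each with the percent of all features called under that setting in parentheses. Without the 8 doubted arrays: 1 (1.62%) for the PPARA trend and 4 (12.8%) for the retinoic acid trend in liver; 1 (4.46%) for retinoic acid, 2 (3.14%) for Wy-14,643 against rosiglitazone and 5 (6.29%) for retinoic acid against the PPARA mean in soleus; 0 (1.09%) for fenofibrate, 1 (1.63%) for bezafibrate, 7 (12.4%) for rosiglitazone and 5 (8.11%) for Wy-14,643 against rosiglitazone in quad, and 9 (8.39%) for rosiglitazone between liver and soleus. With arrays scaled: soleus fenofibrate 4 (5.2%), retinoic acid 2 (5.53%), quad fenofibrate 0 (0.315%). With quality weights: liver bezafibrate 24 (37%), Wy-14,643 31 (56.9%) and rosiglitazone 2 (2.11%), soleus fenofibrate 4 (6.31%) and retinoic acid 3 (5.07%), quad fenofibrate 0 (1.37%), rosiglitazone 11 (22.5%) and PPARA mean 1 (1.73%). With 1 probe per gene: soleus PPARA mean 2 (1.69%) and retinoic acid against it 1 (2.6%), quad fenofibrate 2 (6.04%), bezafibrate 1 (1.5%) and PPARA mean 1 (0.917%). With the pool: soleus fenofibrate 7 (6.48%), bezafibrate 8 (3.87%), Wy-14,643 3 (1.59%), rosiglitazone 8 (8.13%), retinoic acid 5 (7.46%) and PPARA mean 15 (14.7%), quad fenofibrate 13 (22.6%), bezafibrate 5 (8.17%), rosiglitazone 8 (17%), retinoic acid 2 (3.93%) and PPARA mean 10 (18.5%).

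Without single arrays: soleus retinoic acid 3 (5.8%, rat 1022) and 1 (3.1%, rat 1034), rosiglitazone 0 (2.13%) and PPARA mean 2 (0.991%) without rat 1061; quad fenofibrate 2 (7.61%, rat 1256; 9.36%, rat 1068) and 0 (0.771%, rat 1157), bezafibrate 1 (0.792%, rat 1256). Leaving out each day gave, in liver, 15 to 21 for fenofibrate (29.1% to 37.9%), 6 to 14 for bezafibrate (14.6% to 21.4%), 14 to 21 for Wy-14,643 (32.8% to 42.1%), 14 to 18 for rosiglitazone (14% to 23.7%), 20 to 31 for retinoic acid (21.4% to 29.8%) and 16 to 25 for the PPARA mean (38.6% to 46.7%). In soleus it gave 0 to 2, 1 to 2, 0, 0 to 2, 0 and 0 to 3 in that order, and in quad 0 to 2, 0 to 1, 0, 2 to 6, 0 and 0, with at most 9.86% of all features called.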
